A study of Mus musculus with 4 samples.

Results

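Chondrocytes without hypertrophy markers are the cartilage cells of these femur preparations in which Ihh and Panx3 were not read and Col10a1 was low or absent. These are genes of maturing growth plate cartilage. They were taken as barcodes of 500 or more genes, 1000 or more unique molecular identifiers (UMIs, counts of single RNA molecules) and at most 10% mitochondrial UMIs. Each had at least 20 Col2a1 UMIs per 10000, at least 1 UMI of Acan or Col9a1, no Cdh5, Ihh or Panx3 UMI, and fewer than 5 Col10a1 UMIs per 10000. The rule found 770 cells among 18543 cells that passed the filters, of which Ctrl held 118, Sham_D40 158, Graft_D19 232 and Graft_D40 262. A further 1352 cells passed the cartilage part of the rule but had Ihh, Panx3 or at least 5 Col10a1 UMIs per 10000. They are called chondrocytes with a hypertrophy marker here. The study profiled single cells of the femur in mice that carried a human lymphoma graft in that bone. There were 4 libraries, 1 for each group, all from C57BL/6 mice of genotype Rag2-/-gammac-/-, which lack T, B and natural killer cells. Ctrl came from ungrafted mice. Sham_D40 came from mice given saline (PBS) in the femur and was taken at day 40. Graft_D19, labelled early, and Graft_D40, labelled late, came from mice given DOHH2, an established human follicular lymphoma cell line, and were taken at days 19 and 40. No source used here states the age of the mice or how many went into a library. Flushed marrow and cut bone were digested with enzymes, and cells were sorted as Cd51 and Cd200 positive stroma without Cd45, Ter119 and Cd31, or as Cd31 and Sca1 positive endothelium, with human CD20 positive cells of the lymphoma as a further fraction.

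Chondrocytes make and live within cartilage, a tissue of type II collagen fibrils filled with the proteoglycan aggrecan. In the growth plate, resting chondrocytes supply columns of dividing cells, which then enlarge, switch on Ihh, Panx3 and Col10a1 and are replaced by bone. At the joint surface, articular chondrocytes do not follow that course, and their superficial layer makes Prg4, the lubricant protein of joint fluid. The transcription factor SOX9 is required for both kinds.

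Ctrl was the shallowest library and stood apart from the other libraries in depth. The libraries held between 18533482 gene UMIs in Ctrl and 72204599 in Graft_D40. Chondrocytes without hypertrophy markers had a median of 1331 UMIs in Ctrl, whereas the medians of Sham_D40, Graft_D19 and Graft_D40 were 20302.5, 15074.5 and 22718.5, and 83.9% of these cells had fewer than 3000 UMIs in Ctrl against 6.96%, 35.3% and 7.63%. Their summed UMIs were 320958, 3408085, 3788680 and 5810637, so that 3 counts equal 9.35, 0.880, 0.792 and 0.516 CPM (a gene's UMIs scaled to a common total over all genes). Only 1 of their barcodes was shared between libraries, Graft_D19 and Graft_D40. Free RNA was measured in endothelial cells, taken as cells of at least 3 Cdh5 UMIs with Pecam1. There a Col2a1 UMI was seen in 4.68%, 39.8%, 60.5% and 69.8% of cells. The cartilage thresholds on Col2a1 and on Acan or Col9a1 were passed by 1 of 854, 8 of 1154, 23 of 1309 and 13 of 1209. Those are 0.117%, 0.693%, 1.76% and 1.08%. Of the endothelial cells under 3000 UMIs, 3 of 50 passed in Graft_D19 and none in the other libraries. How many of the chosen cells passed through free RNA was not tested. All intervals below are at 95% and cover counting error only. With 1 library per group, animal, day and library cannot be told apart from the group, cells are not replicates, and no p-value is given.

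Cartilage cells without hypertrophy markers made up 2.84% of the Ctrl cells (Clopper-Pearson interval 2.36 to 3.39) and 3.46% of those of Sham_D40 (2.95 to 4.03). Their shares were higher in the grafted libraries, 4.73% for Graft_D19 (4.16 to 5.36) and 5.33% for Graft_D40 (4.71 to 5.99). These shares follow a flow sort, and the sorted fractions can set them. Of all gated chondrocytes, 51.8% (45.1 to 58.4) lacked hypertrophy markers in Ctrl and 45.9% (40.6 to 51.4) in Sham_D40, against 33.6% (30.1 to 37.2) and 30.5% (27.4 to 33.7) in the early and late grafted libraries. Under the rule a single Panx3 or Ihh UMI removes a cell, and the part of depth in that order was not tested. Among gated chondrocytes of 3000 or more UMIs, the share was 32.2% (20.6 to 45.6) in Ctrl, 45.5% (40 to 51.1) in Sham_D40, 27.1% (23.5 to 31.0) in Graft_D19 and 30.6% (27.4 to 33.9) in Graft_D40. At that depth Sham_D40 lay above both grafted libraries, and Ctrl, with 19 of 59 cells, was no longer the highest. The rule was also read after thinning cells to 2000 UMIs, which left out 1090, 153, 342 and 246 cells of fewer UMIs in Ctrl, Sham_D40 and the early and late grafted libraries. Of 81, 343, 597 and 852 cells that then passed the cartilage part, 58.0% (46.5 to 68.9), 59.8% (54.4 to 65.0), 55.1% (51.0 to 59.1) and 55.4% (52.0 to 58.8) lacked hypertrophy markers, and these intervals overlapped. A single Panx3 UMI alone kept 36, 19, 63 and 77 cells out, and Col10a1 alone kept 3, 23, 36 and 41 out. At the Col2a1 threshold, 7, 10, 6 and 17 cells lay just inside, between 20 and 25 per 10000, and 5, 11, 5 and 21 just outside, between 15 and 20.

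**Figure D1:**
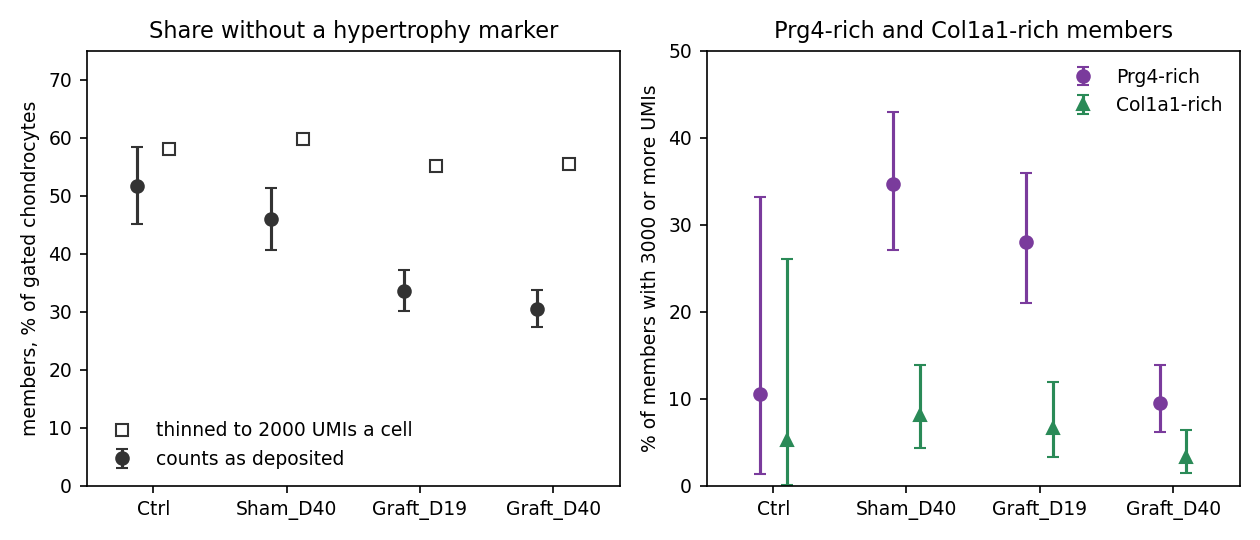
Left, share of gated chondrocytes without a hypertrophy marker in each library, as a percentage, with 95% Clopper-Pearson intervals (filled) and after thinning cells of 2000 or more UMIs to 2000, without the shallower cells (open). Right, share of Prg4-rich and of Col1a1-rich cells among those of 3000 or more UMIs, with the same intervals. The filled points on the left run from 51.8% to 30.5% while the open ones stay between 55.1% and 59.8%, and the Prg4-rich share is 34.7% in Sham_D40 against 9.5% in Graft_D40.

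The label was checked on cartilage genes outside the rule. Sox9, the gene of that factor, was at 1471, 1451, 1337 and 1380 CPM, given here and below in the order Ctrl, Sham_D40, Graft_D19 and Graft_D40 unless libraries are named. Hapln1, which links aggrecan to hyaluronan, was at 2019, 1975, 2666 and 2486 CPM, and the matrilin gene Matn3 at 928, 508, 1142 and 763 CPM. Those levels lay within a narrow range for Sox9 and spanned about 2-fold for Matn3. The genes in the rule were also high, with Col2a1 at 15653, 15279, 24881 and 15465 CPM and Acan at 1954, 1981, 2562 and 2492 CPM. Blood cell markers were near absent: Ptprc had no UMI in Ctrl, Sham_D40 and Graft_D40 and stood at 0.792 CPM in Graft_D19, and the 17 haematopoietic markers summed to between 5.34 and 68.5 CPM, with 6 to 10 of them at 0 in each library. The 12 endothelial markers summed to 174 CPM in Ctrl and to 27.6, 31.9 and 35.5 CPM in the other libraries, and the 10 erythroid markers to 43.6, 9.98, 14.0 and 3.96 CPM. Osteoblast RNA was not near 0: the 13 osteoblast markers summed to 26676, 35736, 28244 and 10059 CPM, with Bglap, the bone matrix protein osteocalcin, at 5711, 8720, 5657 and 1993 CPM. The 12 fibroblast markers summed to 2125, 8485, 4599 and 2782 CPM and the 12 markers of LepR stroma to 2558, 1114, 1551 and 871 CPM. The 24 genes of prehypertrophic and hypertrophic cells outside the rule summed to 14862, 15343, 13617 and 11115 CPM. In chondrocytes with a hypertrophy marker they summed to 27961, 21977, 28926 and 24446 CPM. The label therefore held for cartilage genes, with osteoblast genes and other genes of maturation present in addition.

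The cells were not uniform. Among those with 3000 or more UMIs (19, 147, 150 and 242 cells), 2 ranges were set apart after the values had been seen, as ranges of a level and not as cell types. Col1a1-rich cells had 50 or more Col1a1 UMIs per 10000, and Prg4-rich cells had 50 or more Prg4 UMIs per 10000 without being Col1a1-rich. There were 2, 51, 42 and 23 Prg4-rich cells, which is 10.5% (Clopper-Pearson interval 1.30 to 33.1), 34.7% (27.0 to 43.0), 28.0% (21.0 to 35.9) and 9.5% (6.12 to 13.9). The interval of Graft_D40 did not meet that of Sham_D40, whereas the Ctrl interval, from 19 cells, met all others. Few cells lay near the Prg4 threshold: 0, 1, 1 and 1 had 25 to 50 Prg4 UMIs per 10000, and 0, 9, 4 and 2 had 50 to 100. Of the cells of this depth, 15 of 19, 55 of 147, 86 of 150 and 172 of 242 had no Prg4 UMI at all. Col1a1-rich cells numbered 1, 12, 10 and 8, and the cells outside both ranges numbered 16, 84, 98 and 211. In the sham library, 4 of the Col1a1-rich cells also passed the Prg4 threshold.

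**Figure D2:**
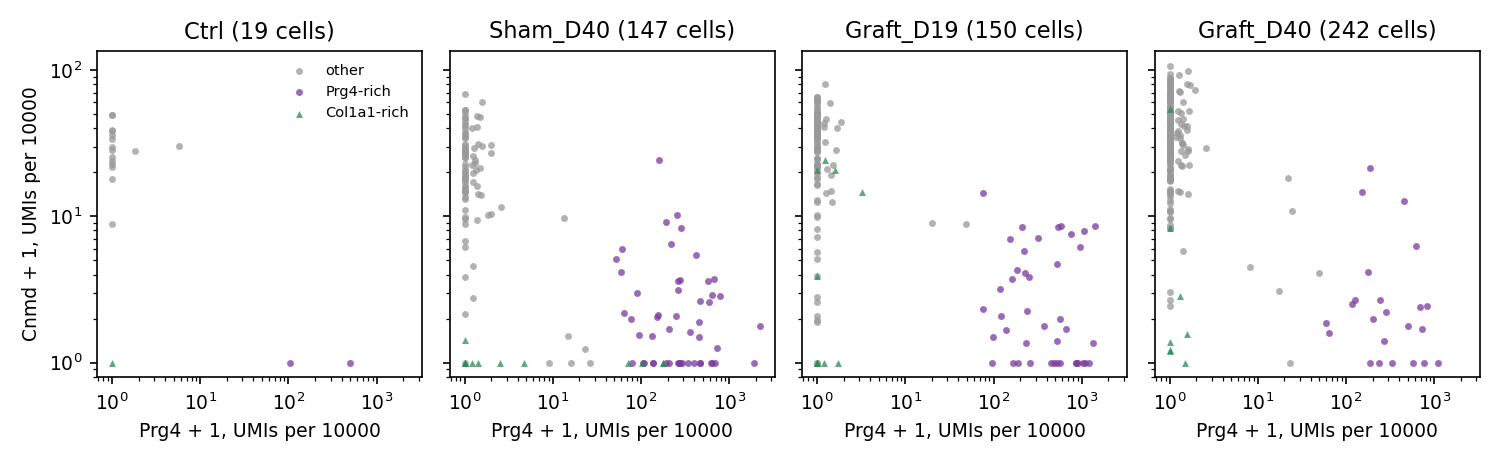
Prg4 against Cnmd in single cells of 3000 or more UMIs, as UMIs per 10000 plus 1 on log axes, with a panel per library and 1 point per cell. Prg4-rich cells (purple) lie to the lower right and most of the other cells (grey) to the upper left, with few points between, and Graft_D40 holds 23 purple points among 242 cells against 51 among 147 in Sham_D40.

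Prg4-rich cells carried a set of joint-surface and small matrix genes at high levels. Prg4 (chromosome 1, 150449412 to 150466165, minus strand, GENCODE vM21 on mm10) was at 34838 CPM in Prg4-rich cells of Sham_D40, 46586 in Graft_D19 and 37026 in Graft_D40, and at 144, 60.6 and 73.2 CPM outside both ranges. Those levels restate the choice of cells. Genes that the range did not use differed with it in the same direction in all 3 deep libraries. Cytl1, a small secreted protein of cartilage (chromosome 5, 37735519 to 37739820, plus strand), was at 28394, 24107 and 29080.0 CPM in Prg4-rich cells of those libraries and at 3575, 2151 and 2765 CPM outside both ranges. Cilp, a cartilage intermediate layer protein (chromosome 9, 65265180 to 65280605, plus strand), was at 10811, 7496 and 7441 CPM against 297, 25.4 and 157. Clusterin (Clu), a secreted chaperone, was at 8346, 6023 and 9806 CPM against 476, 97.4 and 96.9. Creb5, a transcription factor known to drive Prg4 in articular cartilage, was at 459, 424 and 614 CPM against 24.2, 6.14 and 4.50. Gas1, a membrane protein that binds hedgehog ligands, was at 2118, 2280 and 3480 CPM against 39.6, 23.7 and 21.3.

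Other cartilage genes ran the opposite way and were low in Prg4-rich cells. Cnmd, which encodes the anti-angiogenic protein chondromodulin, was at 170, 311 and 320 CPM in Prg4-rich cells of Sham_D40, Graft_D19 and Graft_D40 and at 2266, 3318 and 3875 CPM outside both ranges. Matn3 was at 2.05, 3.55 and 14.9 CPM against 828, 1620 and 860. Pth1r, the receptor of the growth plate signal PTHrP, was at 159, 113 and 129 CPM against 615, 571 and 699, and Ptch1, a hedgehog receptor and target gene, at 88.2, 78.0 and 131 CPM against 595, 494 and 573. Col2a1 did not run the same way in these libraries, with 14908, 17139 and 18672 CPM in Prg4-rich cells against 16200, 25160 and 15512. It was lower in Prg4-rich cells of Sham_D40 and Graft_D19, most clearly in Graft_D19, and higher in those of Graft_D40. Across single cells thinned to 10000 UMIs (133, 133 and 222 cells in these libraries), Spearman's rho with Prg4 was 0.76, 0.87 and 0.77 for Creb5, 0.76, 0.80 and 0.57 for Cilp, and -0.70, -0.66 and -0.44 for Cnmd. For Col2a1 it was -0.05, -0.19 and 0.01. The cells of a library share its depth and its free RNA, so these values are a description.

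The sequences before 4 of the genes that went with Prg4 and before Cnmd, which went against it, are shown because the cells divide along them. They are the 250 bases upstream of the RefSeq start on GRCm38.p6, read 5′ to 3′ on the gene's strand, and capitals mark the core of the cAMP response element, TGACG, which CREB family factors bind.
Creb5, first of 2 starts, chr6:53287053-53287302, plus strand: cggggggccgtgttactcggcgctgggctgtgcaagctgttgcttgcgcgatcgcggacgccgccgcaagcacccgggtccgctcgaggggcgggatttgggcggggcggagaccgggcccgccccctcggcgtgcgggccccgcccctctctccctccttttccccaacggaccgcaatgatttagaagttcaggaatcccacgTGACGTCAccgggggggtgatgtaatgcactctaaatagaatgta
Cilp, chr9:65264930-65265179, plus strand: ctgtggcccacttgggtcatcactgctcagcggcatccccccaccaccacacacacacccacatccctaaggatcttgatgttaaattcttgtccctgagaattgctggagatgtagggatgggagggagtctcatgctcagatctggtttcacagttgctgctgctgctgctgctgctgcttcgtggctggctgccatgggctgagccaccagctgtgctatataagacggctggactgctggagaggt
Cytl1, chr5:37735269-37735518, plus strand: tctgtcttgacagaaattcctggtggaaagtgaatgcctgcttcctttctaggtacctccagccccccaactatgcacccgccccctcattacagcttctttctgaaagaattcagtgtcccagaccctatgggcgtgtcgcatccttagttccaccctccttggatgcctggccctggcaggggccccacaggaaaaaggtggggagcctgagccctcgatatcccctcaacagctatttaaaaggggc
Gas1, chr13:60177536-60177785, minus strand: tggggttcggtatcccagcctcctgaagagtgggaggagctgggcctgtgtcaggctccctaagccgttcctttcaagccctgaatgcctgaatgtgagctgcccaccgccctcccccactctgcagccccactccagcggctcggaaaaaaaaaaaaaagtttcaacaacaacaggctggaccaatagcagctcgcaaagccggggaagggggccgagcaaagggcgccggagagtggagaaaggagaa
Cnmd, chr14:79662184-79662433, minus strand: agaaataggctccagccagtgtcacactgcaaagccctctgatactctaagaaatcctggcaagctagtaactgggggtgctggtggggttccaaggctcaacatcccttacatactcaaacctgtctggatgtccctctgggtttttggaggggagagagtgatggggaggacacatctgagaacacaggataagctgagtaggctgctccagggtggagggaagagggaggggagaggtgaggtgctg
On both strands, TGACG was found in 17.8% of 32851 such windows of 27025 genes and its full palindrome TGACGTCA in 1.55%. The first Creb5 start held the palindrome, in which the 2 overlapping cores begin 45 and 42 bases before the start. The second Creb5 start and the other windows shown held no TGACG, and none held AACAAT, a core bound by SOX factors that is in 9.42% of windows. A match is a description of these letters and not a binding site.

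The Col1a1-rich cells were few but held much of the bone RNA. In Sham_D40, Graft_D19 and Graft_D40, Col1a1, the main collagen of bone, was at 69525, 70661 and 52775 CPM in these cells, which restates their choice, and Bglap at 74874, 50359 and 30942 CPM. Cartilage genes were low there, with Sox9 at 337, 239 and 95.6 CPM and Acan at 456, 1169 and 272 CPM. Their part in the differences between libraries was not tested, and for Graft_D40 against Sham_D40 the counts over all genes and for most lists are also given for the cells outside both ranges.

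Graft_D40 was set against Sham_D40, both taken at day 40, to see how cartilage cells differed late after the graft. Genes whose mean over the 4 libraries reached 20 CPM counted as measured, 5675 in all. A call needed a ratio of at least 1.5-fold, either way, whose exact conditional binomial interval left out 1. Of the measured genes, 190 were called higher in Graft_D40 (3.35%) and 359 lower (6.33%), and the median log2 ratio was 0.02. Outside both ranges 92 of 5658 were called higher (1.63%) and 285 lower (5.04%). For scale, the ungrafted libraries differed by more: 698 genes were called higher in Sham_D40 than in Ctrl (12.3%) and 565 lower (9.96%), with Ctrl the shallow library. Outside both ranges, where Ctrl has 16 cells, those counts were 503 (8.89%) and 496 (8.77%).

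Genes of the joint surface were lower in Graft_D40 than in Sham_D40. Of 10 measured articular and superficial markers, 9 were called lower and none higher, with a median log2 ratio of -1.32. Prg4 was at 1770 CPM in Ctrl, was high in Sham_D40 and Graft_D19 at 10395 and 10489 CPM, and stood at 2640 CPM in Graft_D40. The Graft_D40 to Sham_D40 ratio was 0.254 (0.249 to 0.259). Cilp was at 632, 3361, 1692 and 656 CPM, with a ratio of 0.195 (0.188 to 0.202). For both genes Sham_D40 and Graft_D19 were high, and Graft_D40 lay near the shallow Ctrl. Against Ctrl the list ran the other way, with 2 members called higher in Graft_D40, 1 lower and a median of 0.50 (background 11.8% higher and 10.0% lower). Abi3bp, which encodes a matrix-binding protein, was at 65.4, 339, 308 and 87.8 CPM, and Erg, a transcription factor of articular cartilage, at 6.23, 46.4, 33.3 and 18.1 CPM. The lower Prg4 level went with a lower share of Prg4-rich cells. Fewer cells of a kind and less RNA per cell cannot be told apart in a summed value.

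The same markers were also lower where Prg4-rich cells had been left out. Outside both ranges, 6 of 7 measured articular markers were called lower in Graft_D40, with a median of -0.97. Prg4 itself stood there at 144 CPM in Sham_D40 and 73.2 in Graft_D40. These cells were chosen for low Prg4, so its level there is capped by the choice and does not add to the other markers. Free RNA moved the same way: endothelial cells held 291 CPM of Prg4 in Sham_D40 and 96.0 in Graft_D40. Chondrocytes with a hypertrophy marker had 6 of 7 articular markers called lower, with a median of -1.43, where 0.607% of genes were called higher and 3.97% lower. The part of free RNA in the difference outside both ranges was not tested.

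Genes of type IX collagen were called higher in Graft_D40 than in Sham_D40 over all cells and were not called outside both ranges. Of 4 fibril collagens outside the rule, Col9a2 and Col9a3 were called higher in Graft_D40 and none lower, with a median log2 ratio of 0.61. Col9a2 was at 1477, 1351, 2193 and 2282 CPM, and Col9a3 at 2078, 1374, 2274 and 2221 CPM. Both encode chains of type IX collagen, which coats the type II fibril. Outside both ranges no fibril collagen was called, and the median was 0.31. There Sox9 was at 1850 CPM in Sham_D40 and 1464 in Graft_D40, Acan at 2421 and 2671, and Hapln1 at 2610 and 2685, none past 1.5-fold.

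Single matrix genes differed in both directions. Of 18 measured proteoglycans, matrilins and small cartilage proteins, 6 were called higher and 4 lower, with a median of 0.29, and outside both ranges 3 were called higher and 3 lower, with a median of 0.09. Chondroadherin (Chad), a leucine-rich protein that binds collagen and cells, was at 7428, 7364, 4566 and 4141 CPM. Both grafted libraries lay below both ungrafted ones. The ratio for Graft_D40 was 0.562 over Sham_D40 (0.552 to 0.572) and 0.557 over Ctrl (0.534 to 0.582), and for Graft_D19 it was 0.615 over Ctrl (0.589 to 0.642). Outside both ranges Chad kept that order, at 9369, 8109, 4912 and 4222 CPM. Comp, a pentameric matrix protein, was at 4259, 7159, 4719 and 4132 CPM, so that only Sham_D40 was high. Cnmd was at 2499, 1430, 2345 and 3469 CPM and called higher in Graft_D40 than in Sham_D40 both over all cells (log2 ratio 1.28) and outside both ranges (0.77). Epyc, a small proteoglycan of growth plate cartilage, was at 199, 86.6, 163 and 246 CPM, with log2 ratios of 1.5 and 0.98.

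**Figure D3:**
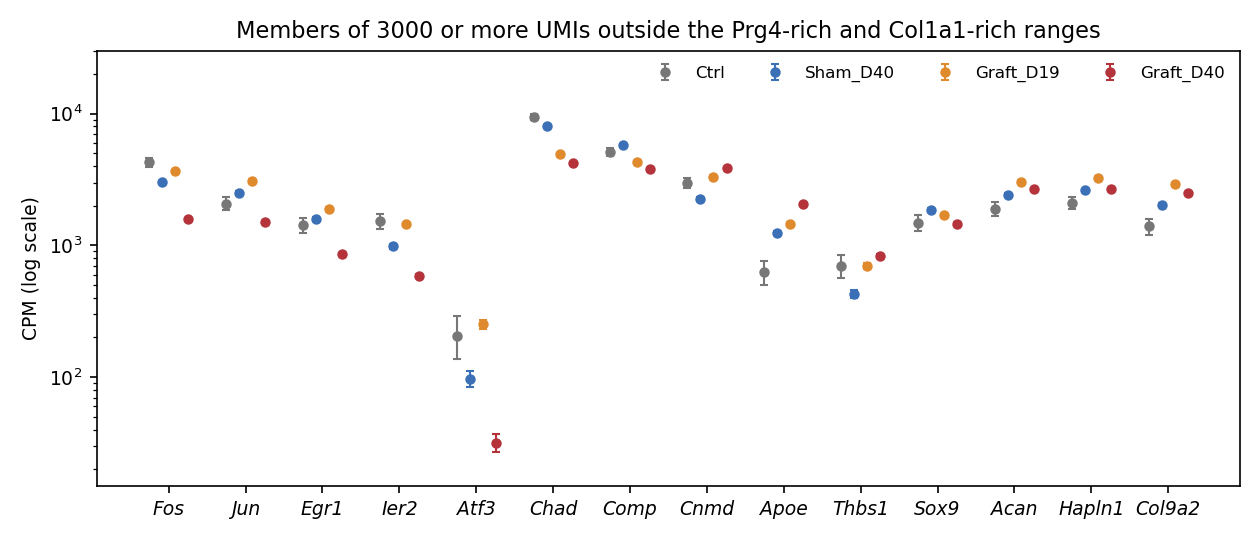
CPM on a log axis of 14 genes named in the text in the 16, 84, 98 and 211 cells of Ctrl, Sham_D40, Graft_D19 and Graft_D40 outside the Prg4-rich and Col1a1-rich ranges, with 95% exact Poisson intervals. Fos, Jun, Egr1, Ier2 and Atf3 are lowest in Graft_D40, Chad is lower in both grafted libraries than in both ungrafted ones, and Sox9, Acan and Hapln1 differ by less than 1.5-fold between Sham_D40 and Graft_D40.

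Of 19 measured chondrocyte transcription factors, 6 were called lower and none higher, with a median log2 ratio of -0.07, and outside both ranges 1 of 16 was called lower, Mef2c. Sox5 and Sox6, which act beside SOX9, were at 221, 265, 267 and 308 CPM and at 84.1, 100, 85.8 and 111 CPM. Runx2, which drives maturation toward bone, was at 103, 124, 106 and 128 CPM. Mef2c, a factor of hypertrophy, was at 215, 149, 143 and 83.6 CPM, highest in Ctrl and lowest in Graft_D40. The articular factor Creb5 was among those called lower over all cells, at 31.2, 161, 100 and 48.2 CPM.

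Resting zone markers divided. Of 12 measured, 8 were called lower and 2 higher in Graft_D40 than in Sham_D40, with a median of -0.89, and outside both ranges 7 of 11 were lower and 1 higher, with a median of -0.76. With Ctrl as comparator 4 were called higher and 3 lower, and the median was 0.09, also with Barx1, a gene without a UMI in Ctrl, set at its bound. The list overlaps with the Prg4-rich pattern through Clu and Gas1. Apoe, a lipid carrier that marks resting chondrocytes, was at 794, 886, 1035 and 1831 CPM and was called higher in Graft_D40 over Sham_D40 (2.07-fold, 1.98 to 2.15) and over Ctrl (2.30-fold, 2.04 to 2.62). Ucma, a matrix protein of the upper growth plate, was at 997, 795, 1115 and 1297 CPM. Pthlh, which encodes PTHrP and holds chondrocytes back from hypertrophy, was at 122, 37.9, 29.3 and 16.9 CPM. Outside both ranges Pthlh was at 265, 59.0, 44.2 and 18.2 CPM, so the grafted libraries lay lowest there too, though the Ctrl value rests on 16 cells.

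Of 10 measured hedgehog and PTHrP signalling genes, 3 were called lower and none higher in Graft_D40 over Sham_D40, with a median of 0.10, where 6.33% of all genes were lower. Those 3 were Pthlh, Gas1 and Cdon, a hedgehog co-receptor, and Pthlh and Gas1 were also the 2 of 9 called lower outside both ranges. The receptor gene Pth1r was at 495, 472, 464 and 651 CPM and the signal transducer Smo at 37.4, 123, 108 and 140 CPM. Ptch1, Gli1 and Hhip, which are targets of the pathway, gave no call: Ptch1 was at 757, 406, 363 and 525 CPM, Gli1 at 31.2, 22.6, 19.3 and 24.1 CPM, and Hhip at 218, 274, 354 and 323 CPM.

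Immediate early genes were lower in Graft_D40. These genes encode factors such as FOS and EGR1 that respond within minutes to stimuli, and enzymatic digestion of tissue is known to induce them. Of 33 measured, 14 were called lower and none higher over all cells, with a median log2 ratio of -0.46. Outside both ranges 25 of 33 were called lower and none higher, with a median of -0.75. Fos was there at 4273, 3020, 3658 and 1574 CPM, with a ratio of 0.521 over Sham_D40 (0.504 to 0.539). Egr1 was at 1420, 1583, 1898 and 857 CPM, Jun at 2065, 2496, 3098 and 1504 CPM, and Atf3, a stress-response factor, at 204, 96.7, 251 and 31.7 CPM. In each of these 4 genes Graft_D40 was the lowest library. Hspa1a, a gene of the heat shock response, was also lowest in Graft_D40, at 197, 201, 82.3 and 46.6 CPM. Unlike those 4 genes, it lay below both ungrafted libraries in Graft_D19 too. Its near-identical copy Hspa1b makes the split between them uncertain. The same list was lower in other cells of the library, with 25 of 33 called lower in chondrocytes with a hypertrophy marker (median -0.87) and 19 of 31 in endothelial cells (median -0.73, where 5.17% of genes were called higher and 6.51% lower). The part of tissue digestion in the result was not tested. Against Ctrl, 2 were called higher and 19 lower over all cells, with a median of -0.93.

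Growth factor genes were called lower in Graft_D40 than in Sham_D40 more often than higher. Of 17 measured FGF, Wnt and IGF genes, 8 were called lower in Graft_D40 than in Sham_D40 and 1 higher (median -0.44), and outside both ranges 9 of 16 were called lower and none higher. Igfbp6, which binds IGF2, was at 96.6, 176, 88.7 and 25.1 CPM, with 71.7% to 97.0% of its UMIs in 10 cells of a library. Wif1, a secreted Wnt inhibitor, was at 371, 1028, 714 and 396 CPM, and Igfbp5, another IGF-binding protein, at 184, 351, 261 and 136 CPM. Igfbp6 and Igfbp5 were lowest in Graft_D40, and Wif1 was high in Sham_D40 and Graft_D19. Of 27 BMP and TGF-beta genes, 10 were called lower and 2 higher (median -0.39), and outside both ranges 5 of 21 were called lower and 1 higher (median -0.15). Ccn2, a matricellular protein induced by TGF-beta, was at 632, 1600, 1360 and 605 CPM, and Inhba, an activin subunit, at 12.5, 61.6, 47.8 and 18.8 CPM. Tgfbi, a secreted TGF-beta-induced protein, went the other way at 99.7, 29.0, 83.4 and 70.4 CPM, with Sham_D40 alone low. Against Ctrl the FGF, Wnt and IGF list gave 1 higher and 4 lower of 17 (median -0.13). The BMP and TGF-beta list gave 2 higher and 4 lower of 27 there (median -0.06). Of all genes, 11.8% were called higher and 10.0% lower against Ctrl.

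Of 9 factors that act on vessels, 3 were called higher in Graft_D40 than in Sham_D40 and 1 lower, with a median of 0.48, and outside both ranges 3 of 8 were higher and 2 lower, with a median of 0.19. Sema3c, a guidance molecule, was at 46.7, 61.0, 57.5 and 163 CPM, high in Graft_D40 alone, with ratios of 2.67 over Sham_D40 (2.30 to 3.12) and 3.49 over Ctrl (2.10 to 6.26). Thbs1, an inhibitor of angiogenesis, was at 551, 494, 734 and 846 CPM. Vegfa, the main attractant of vessels into cartilage, was at 43.6, 187, 113 and 105 CPM, called lower in Graft_D40 than in Sham_D40 (0.561, 0.501 to 0.628) and higher than in Ctrl (2.40-fold, 1.42 to 4.42).

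Osteoblast markers were mostly called lower in Graft_D40. Of 10 measured osteoblast markers, 9 were called lower and none higher (median -1.99), and outside both ranges 6 of 9 were lower and 1 higher (median -1.48). In chondrocytes with a hypertrophy marker 3 of 10 were higher and 2 lower (median 0.04), and in endothelial cells 4 of 7 were higher and 2 lower (median 2.49). Of 22 genes of prehypertrophic and hypertrophic cells outside the rule, 10 were called lower and 2 higher (median -0.45), and outside both ranges 9 of 20 were lower and 1 higher (median -0.36). Spp1, the bone matrix protein osteopontin, was at 1991, 3098, 2570 and 478 CPM. It rested on few cells, since the 10 cells with most Spp1 held 75%, 81.4%, 90.1% and 54.0% of its UMIs. Ibsp, bone sialoprotein, was at 1365, 5701, 2733 and 1345 CPM and Alpl, the alkaline phosphatase of mineralising cells, at 134, 222, 178 and 87.4 CPM. Col1a1 reversed between cell sets: it was at 7206 CPM in Sham_D40 and 2672 in Graft_D40 over all cells, and at 89.4 and 169 CPM outside both ranges. The latter cells were chosen for low Col1a1, so its level there is what the choice left. Endothelial cells, used above to read free RNA, held 272 and 2420 CPM of Col1a1 in Sham_D40 and Graft_D40. They held 62.1 and 605 CPM of Bglap but 801 and 201 CPM of Ibsp. The part of free RNA in the Col1a1 reversal was not tested. Fibroblast markers were called lower for 5 of 7 and higher for 1 (median -1.49), and outside both ranges for 4 and 1 of 7 (median -1.27), but against Ctrl 1 was higher and 1 lower (median 0.41).

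A further set of genes was chosen by a rule across all genes. They reach 50 CPM in Graft_D40 or in both ungrafted libraries and are called the same way in Graft_D40 against each ungrafted library, in the order of the weaker of those log2 ratios. There were 43 such genes higher and 63 lower. C1qtnf3, a secreted relative of adiponectin made in cartilage, was at 31.2, 0.587, 151 and 86.7 CPM, where the Sham_D40 value is 2 UMIs and the ratio over it was 148 (40.7 to 1224). Sham_D40 thus stood apart from 3 libraries, and the ratio over Ctrl was 2.78 (1.5 to 5.84). Slc2a5, the fructose transporter, was at 15.6, 20.8, 34.6 and 63.5 CPM, Lama2, a laminin chain, at 6.23, 24.1, 23.2 and 61.6 CPM, and Col8a1, a short-chain collagen, at 9.35, 20.8, 35.4 and 62.8 CPM. In all 3 Graft_D40 was highest over all cells. Col8a1 rested on few cells, since 10 cells held 81.6% of its UMIs in Graft_D40, and outside both ranges it was at 0, 0.483, 22.1 and 18.4 CPM and not called over Ctrl. Ehf, an epithelial transcription factor, had no UMI in Ctrl, where 3 counts are 9.35 CPM, and was at 23.2, 11.6 and 54.7 CPM in the other libraries. Thsd4 was at 15.6, 24.6, 22.7 and 55.9 CPM and Dclk1 at 18.7, 27.3, 38.5 and 57.7 CPM. Hist1h2ap, a histone of dividing cells with near-identical copies, was at 15.6, 14.1, 208 and 92.9 CPM, and 10 cells held 99.4% of its UMIs in Graft_D40. Sema3c and Apoe, described above, complete the 10 leading genes.

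Of the 10 leading genes that were lower, 8 are given here. Among them, Spp1, Igfbp6, Hspa1a, Bglap and Egr2 have been described or belong to lists above. Egr2, an immediate early factor, was at 74.8, 63.4, 78.4 and 20.3 CPM. Hes1, a Notch target, was at 190, 142, 147 and 50.4 CPM. For Egr2 and Hes1 Graft_D40 lay below the other 3 libraries, and both genes were also called lower outside both ranges. Hspa1b was at 112, 64.0, 43.6 and 17.9 CPM and Bglap2 at 1882, 3854, 2099 and 683 CPM, both from gene pairs whose reads are hard to divide. Bglap and Bglap2 rested on few cells. In each library 10 cells held 84.0%, 96.3%, 97.2% and 91.3% of the Bglap UMIs and 85.9%, 98.9%, 98.2% and 95.3% of those of Bglap2.

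**Figure D4:**
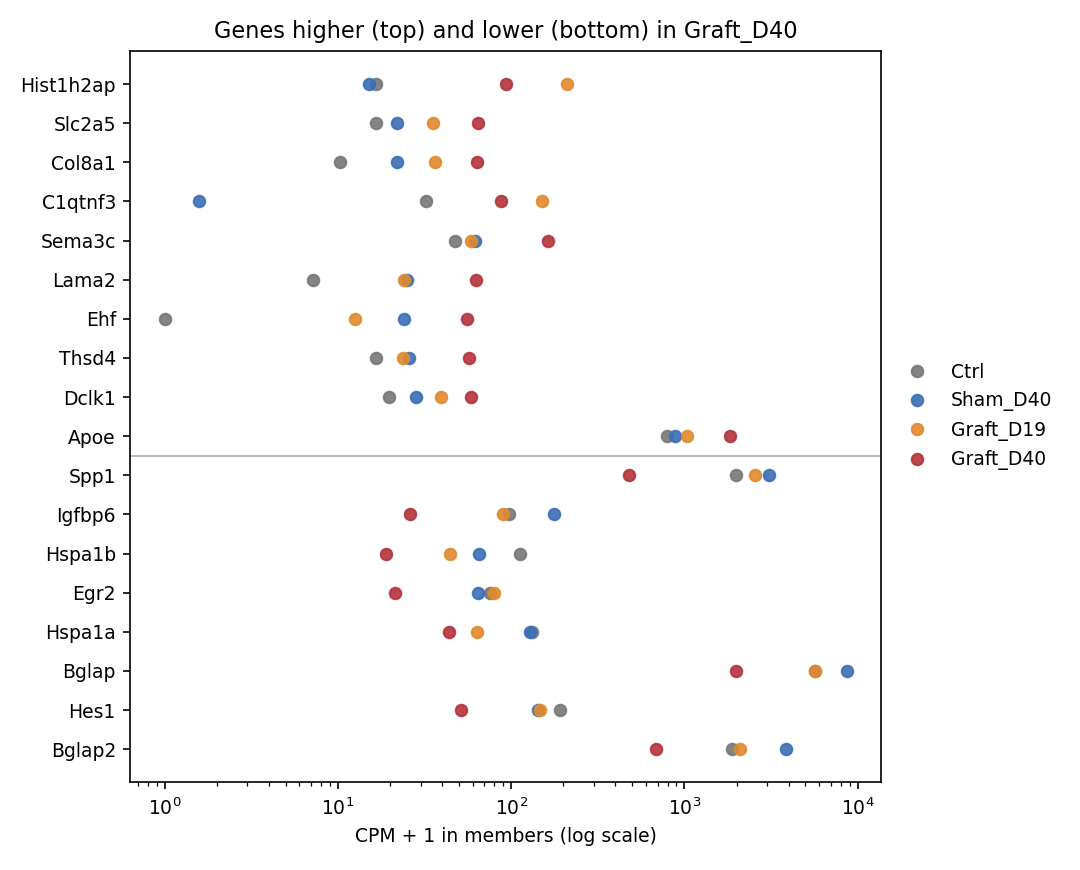
CPM plus 1 in chondrocytes without hypertrophy markers (members in the plot), on a log axis, of the 10 leading genes called higher (top) and 8 of the 10 called lower (bottom) in Graft_D40 over both Sham_D40 and Ctrl, with 1 point per library. Graft_D40 lies to the right of Sham_D40 and Ctrl for the upper genes and to the left for the lower ones, which restates their choice, and Graft_D19 lies beyond Graft_D40 for Hist1h2ap and C1qtnf3.

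None of 33 nuclear genes of the respiratory chain was called between the day 40 libraries (median -0.05), although 24 were called lower in Graft_D40 than in Ctrl (median -0.74). Outside both ranges 23 were also lower than in Ctrl (median -0.74, where 7.71% of genes were called higher and 9.81% lower). Of 26 genes of sulphation and glycosaminoglycan synthesis, 2 were called higher and 4 lower (median 0.13), and of 26 genes of collagen folding and secretion 1 and 6 (median -0.08). Endoplasmic reticulum stress genes gave 1 lower of 22 (median -0.34), hypoxia and glycolysis genes 1 higher and 5 lower of 27 (median -0.19). Interferon-stimulated genes gave 1 higher of 4 (median 0.02), antigen presentation genes 2 lower of 7 (median -0.14), and inflammatory factors 2 lower of 7 (median -0.03). Cartilage-degrading enzymes and their inhibitors gave 3 lower of 11 (median -0.11). Timp1, an inhibitor of metalloproteinases, was at 324, 230, 410 and 104 CPM, lowest in Graft_D40. LepR stroma markers gave 5 lower of 11 (median -0.38). The share called lower was above the 6.33% of all genes in each of these lists except the respiratory chain, endoplasmic reticulum stress and interferon lists.

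**Figure D5:**
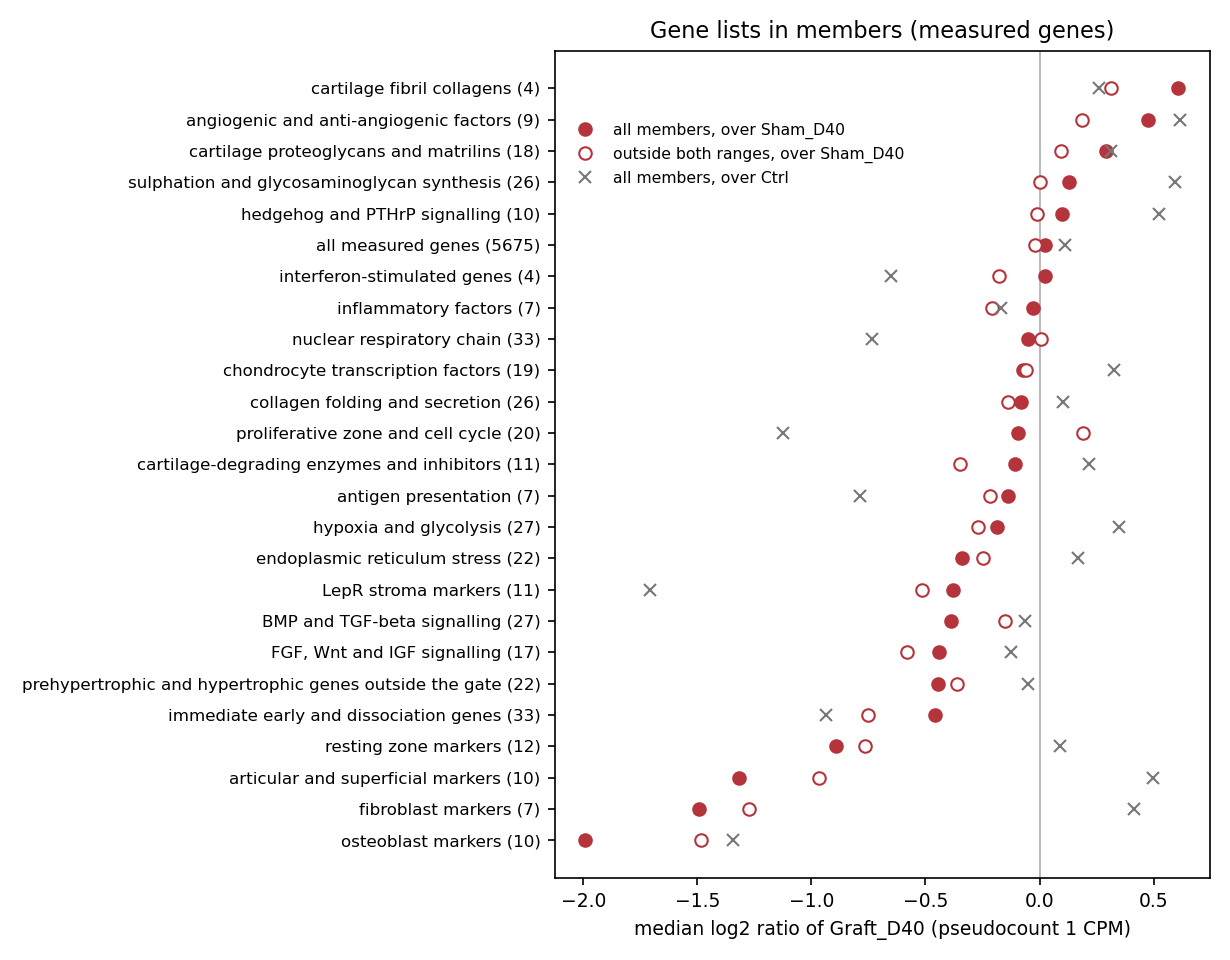
Median log2 ratio of Graft_D40 for each gene list in the chondrocytes without hypertrophy markers (members in the plot), with the number of measured genes in brackets, over Sham_D40 in all cells (filled), over Sham_D40 in cells of 3000 or more UMIs outside both ranges (open) and over Ctrl in all cells (crosses). The articular median is -1.32 over Sham_D40 and 0.50 over Ctrl, whereas the osteoblast and immediate early medians are below 0 for all 3 symbols.

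Graft_D19 was set against Ctrl to see the early state. Of 5675 genes 584 were called higher (10.3%) and 398 lower (7.01%), with a median log2 ratio of 0.10. Outside both ranges 393 were called higher (6.95%) and 405 lower (7.16%). These counts rest on the shallow Ctrl library, which differed from Sham_D40 in more genes. Articular markers were higher in Graft_D19 than in Ctrl, 8 of 10 with 1 lower (median 1.53), but Sham_D40 was higher still over Ctrl, with 8 of 10 and a median of 2.17. With Sham_D40 as comparator, where 2.87% of genes were called higher and 2.66% lower, none of the 10 was called higher in Graft_D19 and 3 were lower (median -0.35). Fibril collagens gave no call over Ctrl (median 0.23), but outside both ranges 2 of 4 were called higher (median 0.49). With Sham_D40 as comparator, 3 of the 4 were called higher over all cells (median 0.67). Glycosaminoglycan synthesis gave 7 higher of 26 over Ctrl and none lower (median 0.58). Sham_D40 over Ctrl gave the same counts (median 0.48), and Graft_D19 over Sham_D40 gave none higher and 2 lower (median -0.03). Immediate early genes gave 5 higher and 5 lower of 33 (median -0.03).

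Genes of the cell cycle set Graft_D19 above Sham_D40 but not above Ctrl. Over Sham_D40, 10 of 20 were called higher and none lower (median 0.56), and outside both ranges 14 were higher (median 0.96, where 3.76% of genes were called higher and 4.77% lower). Over Ctrl 1 was higher and 5 were lower (median -0.36). Top2a, which untangles replicated DNA, was at 184, 70.7, 107 and 73.7 CPM, and the proliferation marker Mki67 at 53.0, 42.0, 79.2 and 43.9 CPM. Ctrl was thus highest for Top2a and Graft_D19 for Mki67. By the rule applied to all genes, 24 genes were higher in Graft_D19 than in both ungrafted libraries and 9 were lower. The leading 5 that were higher were Hist1h2ap, C1qtnf3, Mmp13, Matn4 and Hist2h2ac. Mmp13, a collagenase of late cartilage, was at 49.9, 20.5, 125 and 12.7 CPM, and 10 cells held 93.5% of its UMIs in Graft_D19. Matn4 was at 34.3, 19.4, 85.8 and 43.5 CPM and Hist2h2ac, another histone with close copies, at 28.0, 24.1, 66.8 and 34.2 CPM. Outside both ranges Matn4 and Hist2h2ac were called over Sham_D40 but not over Ctrl. In Graft_D19, 10 cells held 96.2%, 78.6%, 61.5% and 76.7% of the UMIs of Hist1h2ap, C1qtnf3, Matn4 and Hist2h2ac. The leading 5 that were lower were Efemp1, a fibulin, at 56.1, 52.2, 15.8 and 30.1 CPM, Hspa1a, Ly6c1 at 122, 98.9, 49.6 and 104 CPM, and the pair Rnaset2a and Rnaset2b, whose sequences are near identical and whose split is uncertain.

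Between the grafted libraries, 177 genes were called higher in Graft_D40 than in Graft_D19 (3.12%) and 323 lower (5.69%). Antibody features were present in Graft_D40 and not in Graft_D19. Of 10 articular markers 9 were lower in Graft_D40 and none higher (median -1.07), but outside both ranges 2 of 7 were lower and 1 higher (median -0.28, where 2.67% of genes were called higher and 5.14% lower). Of 33 immediate early genes 21 were lower and none higher (median -0.76), and of 20 cell cycle genes 11 were lower and none higher (median -0.69).

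Shares of cells by marker were read at equal depth, after thinning each cell to 2000 UMIs and leaving out 88, 9, 76 and 18 shallower cells. At least 2 UMIs of Prg4 or Cilp were found in 10.0% of 30 cells, 47.0% of 149, 29.5% of 156 and 15.6% of 244. Endothelial cells, of median depths 5753, 8043, 9300.0 and 8315 UMIs before the same thinning, gave 0.837%, 3.67%, 1.31% and 2.01%, so all 4 values lay above that background. Without thinning the articular share was 6.78%, 60.8%, 27.2% and 25.2%. At least 2 UMIs of Pthlh, Sfrp5 or Ucma, markers of the resting zone, were found in 36.7%, 34.9%, 46.2% and 56.6%, against 0.279%, 0.437%, 0.232% and 0.752% in endothelial cells and 38.1%, 75.9%, 61.6% and 86.6% without thinning. Pthlh or Sfrp5 without Ucma gave 3.33%, 2.01%, 1.28% and 2.05%. Cycling cells, with 2 or more UMIs of 7 mitotic genes, were 13.3% (3.76 to 30.7), 2.68% (0.736 to 6.73), 5.77% (2.67 to 10.7) and 2.87% (1.16 to 5.82), with overlapping intervals. Endothelial cells gave 0.279%, 1.05%, 2.47% and 2.42%, and the shares without thinning were 7.63%, 4.43%, 11.6% and 5.34%.

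Set beside the chondrocytes with a hypertrophy marker, these cells had higher summed levels of joint-surface genes such as Cilp and Prg4 in every library. Outside both ranges the 16 articular and superficial markers summed to 571, 1276, 627 and 688 CPM. All chondrocytes with a hypertrophy marker had 350, 3415, 2738 and 1245 CPM, which is more in each library but Ctrl. Prg4-rich, Col1a1-rich and shallow cells were left out on the side without markers only. Leaving out Prg4-rich cells lowers the sum on that side by choice. These sums therefore cannot show whether most cells without markers had lower levels than cells with them. The comparison of cells with and without markers is a description, because the rule divides the cells by maturation genes. Of 2717 genes considered, 73 were higher in all 4 libraries in the cells without markers and 48 lower. Cilp led the genes that were higher, at 632, 3361, 1692 and 656 CPM without hypertrophy markers against 22.7, 629, 189 and 79.4 with them. Prg4 was at 1770, 10395, 10489 and 2640 CPM against 105, 2176, 2178 and 810, and Clu at 1075, 2804, 1431 and 863 CPM against 22.7, 659, 172 and 87.4. Pthlh was at 122, 37.9, 29.3 and 16.9 CPM without hypertrophy markers and at 0, 1.73, 0.434 and 4.55 CPM with them. Car3, a carbonic anhydrase, was at 184, 146, 201 and 81.7 CPM against 1.51, 15.2, 43.7 and 7.37. Ppa1, a pyrophosphatase, was at 2412, 722, 1089 and 733 CPM against 8294, 4916, 4898 and 4304. Mef2c was at 215, 149, 143 and 83.6 CPM against 897, 596, 596 and 700, and Pth1r, a prehypertrophic gene, at 495, 472, 464 and 651 CPM against 1260, 1189, 1271 and 1765. Sox9 did not separate the cells, at 1471, 1451, 1337 and 1380 CPM against 1398, 1841, 1464 and 1516.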

How the data were processed

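Single-cell 3′ libraries were made with the 10x Genomics v3.1 protocol, per the labels' protocols. The authors deposited whole-number UMI counts for each gene in each barcode. Per the file headers they were written by Cell Ranger 5.0.0, but version 3.1.0, with mm10 as the build, stands in the submitters' processing notes. Antibody features, present in Sham_D40 and Graft_D40, were left out of totals. UMI counts were summed over the chosen cells of each library and scaled to CPM with exact Poisson intervals. Ratios carry exact conditional binomial intervals, and log2 ratios used a pseudocount of 1 CPM. Doublets were not removed in the main analysis. Scrublet (scanpy 1.11.5, expected rate set to 6%) marked 77, 43, 89 and 53 cells, of which 1, 0, 7 and 4 were chosen cells, and their removal was an alternative. The calculation was tested on simulated data that held counting error alone. These data had no variation between cells or libraries, so the test cannot show how the intervals perform where such variation is present. Genes named are the markers and gate genes, genes reaching 50 CPM in the grafted or both ungrafted libraries and called the same way against each ungrafted library (the first 10 at day 40 and the first 5 at day 19 in each direction), the 2 to 4 members of a list with the greatest log2 ratios, and cartilage genes that describe a role. Of the 10 lower at day 40, 2 are not reported here. Other genes, such as Fos and Smo, were named after their values were seen. The cells and lists were chosen with earlier results of these data known, and the Prg4-rich and Col1a1-rich ranges after seeing them. Gene positions are from GENCODE vM21. The scripts ran under Python 3.11.15 with pandas 2.3.3, scipy 1.17.1, numpy 2.4.6 and matplotlib 3.10.9.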

Additional observations from a re-analysis of the deposited data

Results flagged for a closer look

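The early and late grafted libraries differed from their comparators in opposite directions for 1 gene and 2 lists, and no difference between these contrasts was tested. Mmp13, a collagenase of late cartilage, had a log2 ratio of -0.65 in Graft_D40 over Sham_D40 and of 1.31 in Graft_D19 over Ctrl. The median of the articular and superficial markers was -1.32 and 1.53, and that of the fibroblast markers was -1.49 and 0.66. Both list medians took the opposite sign when the ungrafted comparators were exchanged.

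A signal was also present in features outside the gene table. Antibody feature B0302 had a median of 108.0 counts in the chosen cells of Graft_D40 and of 2 in those of Sham_D40, whereas B0301 had 0 and 123. No source used here says what these features mark.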

How the results depend on the processing

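Of 598 list medians under alternatives, 70 changed sign, 27 of them with the other ungrafted comparator. In 11 the main median was at least 1.5-fold, and these are given below. In the other 59 it was smaller. Beside those 11, 565 medians moved by less than 1.5-fold and 22 by more. For the genes chosen by the rule over all genes, 290 values stayed within the counting interval and 64 did not, with no change of sign. Col1a1, which is not among them, changed direction outside both ranges, where cells had been chosen for low Col1a1. With Ctrl in place of Sham_D40, Graft_D40 had 670 genes higher and 570 lower, and the resting zone, articular and fibroblast medians became 0.088, 0.50 and 0.41. With Sham_D40 in place of Ctrl, Graft_D19 had 163 higher and 151 lower, and the articular, fibroblast, interferon and LepR medians became -0.35, -0.49, 0.31 and 0.43. The LepR median of Graft_D19 over Ctrl was also 0.0488 as a mean over cells, 0.47 at a Col2a1 gate of 50 per 10000, 0.24 in cells of 3000 or more UMIs and 0.32 outside both ranges. The cause was not tested.

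Counts moved with the minimum level by construction, as fewer or more genes were tested. At a mean of 5 CPM, 568 genes were higher and 718 lower in Graft_D40 over Sham_D40, and 504 and 699 over Graft_D19. At 50 CPM the counts were 77 and 187, and 59 and 176, with 360 higher in Graft_D19 over Ctrl and 418 in Sham_D40 over Ctrl. Means over cells, called by fold alone, gave 350 higher in Graft_D40 over Sham_D40, 1538 and 902 in Graft_D19 over Ctrl, 1546 and 1064 in Sham_D40 over Ctrl, and 460 and 523 in Graft_D40 over Graft_D19. Median-ratio scaling gave 613 lower in Graft_D19 over Ctrl. Outside both ranges, an alternative chosen after seeing the data, 92 genes were higher in Graft_D40 over Sham_D40.

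The share of chosen cells became 2.24%, 2.36% and 4.11% in Ctrl, Sham_D40 and Graft_D40 at a Col2a1 gate of 50, 2.19% in Ctrl with 3 Acan or Col9a1 UMIs, 4.21% in Graft_D40 with no Col10a1 UMI, 0.784% in Ctrl and 3.44% in Graft_D19 at 3000 UMIs, and 1.54%, 4.64%, 7.21% and 10.1% in the 4 libraries when the gate was read after thinning. The resting zone share was 69.2%, 62.2%, 67.1% and 81.8% at 5000 UMIs, 60.0%, 61.7%, 64.7% and 78.7% with 1 UMI, and 75.9%, 61.6% and 86.6% without thinning in Sham_D40, Graft_D19 and Graft_D40. Without thinning the articular share was 60.8% in Sham_D40 and 25.2% in Graft_D40, and the cycling share 11.6% in Graft_D19. Over all cells the Prg4-rich share of Graft_D19 was 19%. No paired analysis was possible because each group has 1 library. The Ctrl depth limits every contrast with it: genes under 9.35 CPM are within 3 counts there.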
